A study of Mus musculus with 10 samples.

Results

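A pair of histone marks, crotonylation of lysine 9 of histone H3 (H3K9cr) and acetylation of lysine 27 of the same histone (H3K27ac), were compared across the genome of control neural stem and progenitor cells. The members were all deposited peaks of the control H3K9cr library and the control H3K27ac library on chromosomes 1 to 19, which came to 31019 H3K9cr peaks and 51780 H3K27ac peaks, from 2 of the 10 samples of the series. A peak had a partner where a peak of the other mark overlapped it by at least 1 bp, and otherwise the mark was called alone there. The cells were cultured from the forebrain of E13.5 mouse embryos, and control cells received water for 24 h. Other cultures of the series received 10 mM crotonate for 24 h, and their H3K9cr and H3K27ac peaks enter only one paragraph near the end. Chromatin was taken without cross-linking (native chromatin immunoprecipitation and sequencing), and control libraries for trimethylation of lysine 4 (H3K4me3) and of lysine 27 (H3K27me3) were used to describe the peaks. Each mark had 1 library per condition, so no value below has a replicate error and no test between marks was possible. The 95% intervals are exact Clopper-Pearson intervals, and they cover counting error only.

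H3K27ac is laid down by the acetyltransferases p300 and CBP and marks active promoters and enhancers. Crotonylation is a longer acyl group on lysine, written by some of the same acetyltransferases from crotonyl-CoA and bound with high affinity by YEATS domain proteins, and it is found mainly at active promoters and enhancers. H3K4me3 marks promoters, H3K27me3 is the mark of Polycomb repressive complex 2, and promoters that carry both are called bivalent. In neural progenitors, genes of later neurons are commonly held in that bivalent state.

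The promoters below show the 3 kinds of gene start that the comparison separates. Each run is the 250 bases before an annotated start on GRCm38.p6, from RefSeq, written 5′ to 3′ on the strand of the gene, and capitals mark each CG dinucleotide. Hjurp (chr1:88277580-88277829, minus strand), which encodes the chaperone of the centromeric histone, led the genes with both marks. Gad1 (chr2:70561879-70562128, plus strand), which makes GABA from glutamate, and Emx1 (chr6:85187681-85187930, plus strand), a factor of the dorsal forebrain, had H3K9cr without H3K27ac at this start. Gfap (chr11:102897201-102897450, minus strand), the filament protein of astrocytes, and S100b (chr10:76253586-76253835, plus strand), a calcium-binding protein of astrocytes, had H3K27ac without H3K9cr within 1 kb of the start. The Gfap H3K27ac peak lay outside the 250 bases shown and touched an H3K9cr peak beyond 1 kb, so that peak was not alone. The last 4 of these genes were chosen after their values were seen. The reason was that the first genes of the naming rule for each mark alone, Egr2 and Unk, carried both marks at the starts of the promoter table.
Hjurp: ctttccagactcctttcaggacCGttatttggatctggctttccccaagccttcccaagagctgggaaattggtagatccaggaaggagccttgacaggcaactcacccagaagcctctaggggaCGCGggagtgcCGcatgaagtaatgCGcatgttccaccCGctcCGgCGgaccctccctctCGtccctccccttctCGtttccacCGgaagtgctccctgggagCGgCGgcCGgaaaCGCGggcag
Gad1: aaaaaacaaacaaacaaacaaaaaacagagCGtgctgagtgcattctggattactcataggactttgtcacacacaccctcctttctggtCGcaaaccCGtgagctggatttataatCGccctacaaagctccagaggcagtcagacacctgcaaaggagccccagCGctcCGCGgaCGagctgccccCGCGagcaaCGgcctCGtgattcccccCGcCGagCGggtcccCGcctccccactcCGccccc
Emx1: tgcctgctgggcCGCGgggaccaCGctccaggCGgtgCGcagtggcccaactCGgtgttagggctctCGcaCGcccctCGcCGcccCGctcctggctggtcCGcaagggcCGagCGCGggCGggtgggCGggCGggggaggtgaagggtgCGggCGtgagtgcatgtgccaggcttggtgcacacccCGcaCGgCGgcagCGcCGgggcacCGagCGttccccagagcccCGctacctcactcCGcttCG
Gfap: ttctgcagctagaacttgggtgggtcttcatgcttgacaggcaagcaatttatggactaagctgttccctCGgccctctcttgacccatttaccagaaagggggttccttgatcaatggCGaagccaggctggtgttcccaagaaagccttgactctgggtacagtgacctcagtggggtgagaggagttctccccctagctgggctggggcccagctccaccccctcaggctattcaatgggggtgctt
S100b: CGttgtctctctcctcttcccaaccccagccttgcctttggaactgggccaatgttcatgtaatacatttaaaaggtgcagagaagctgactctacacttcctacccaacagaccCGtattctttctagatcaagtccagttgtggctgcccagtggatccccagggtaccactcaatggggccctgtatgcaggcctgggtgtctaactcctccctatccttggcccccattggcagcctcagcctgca
Hjurp has 16 CG dinucleotides in this window, Gad1 has 17 and Emx1 has 30. Gfap and S100b each have 2.

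The lists differed in peak signal before any comparison. H3K9cr peaks had a median pileup (fragments stacked at the summit) of 74 and a median enrichment of 14.6-fold over the authors' local background, and H3K27ac peaks had medians of 23 and 5.55-fold. The weakest entry had a q-value of 0.041 for H3K9cr and 0.048 for H3K27ac. Median widths were 1160 bp and 881 bp, and the lists covered 44.2 Mb and 65.3 Mb. No read total per library was at hand, so strength was compared only as a percentile of −log10 q within each list. The cultures carried both marks at the ends of all 10 neural stem and progenitor markers looked for, among them Sox2, Nes, Pax6, Vim, Fabp7, Hes1, Hes5, Sox1 and Sox9. Both marks also stood at 2 of 5 neuron, 1 of 4 astrocyte, 1 of 4 oligodendrocyte, 1 of 5 microglia, 1 of 5 endothelium, 2 of 5 mural and fibroblast and 2 of 2 erythroid markers found. Of all protein-coding genes 57.2% had both marks at their ends, so these small counts do not tell whether a cell type was present.

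Most H3K9cr peaks lay on H3K27ac, and in the full lists H3K27ac extended to many sites at which no H3K9cr peak was called. Of the H3K9cr peaks, 27802 had a partner, which is 89.6% (89.3 to 90.0), and 3217 stood alone (10.4%). Of the H3K27ac peaks, 27566 had a partner, which is 53.2% (52.8 to 53.7), and 24214 stood alone (46.8%). This asymmetry depended on the length of the lists, since with equal numbers of peaks 81.2% of H3K9cr peaks and 78.9% of H3K27ac peaks had a partner. With an overlap of at least 50% of both peaks the shares were 62.5% and 37.4%. In a bulk culture, fewer cells that carry a mark and less of the mark per cell cannot be told apart. In bases, 38.1 Mb lay under both marks, which was 86.1% of the H3K9cr cover and 58.3% of the H3K27ac cover. The share with a partner ran from 88.6% to 91.4% over the 19 chromosomes for H3K9cr and from 48.2% to 58.7% for H3K27ac. Peaks near the 1 bp limit were few and weak. Those that shared at most 100 bp numbered 55 for H3K9cr and 94 for H3K27ac, and 23 and 68 peaks stood alone with the other mark within 100 bp. Both H3K9cr sets had a median percentile of 4.64, and the H3K27ac sets had 17.0 and 15.4. Away from the limit, the other mark was distant, with a median of 15176 bp from an H3K9cr peak alone and 12634 bp from an H3K27ac peak alone.

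Peaks of one mark alone were weak within their own list, and narrower over the whole list. The median width was 1284 bp for H3K9cr with a partner and 499 bp alone, and for H3K27ac it was 1575 bp with a partner and 438 bp alone. The median H3K9cr enrichment was 19.3-fold with a partner and 5.49-fold alone. For H3K27ac it was 12.2-fold with a partner and 3.84-fold alone. At like strength the H3K27ac widths were close, at 758 bp with a partner and 709 bp alone in bin 5 of the 10 strength bins described next, and 1398 bp and 1390 bp in bin 7. For H3K9cr they were 1082 bp and 820.5 bp in bin 5. None of the strongest 10% of either list was alone. The strongest H3K9cr peak alone reached percentile 62.6 of its list and the strongest H3K27ac peak alone reached 81.0.

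**Figure D1:**
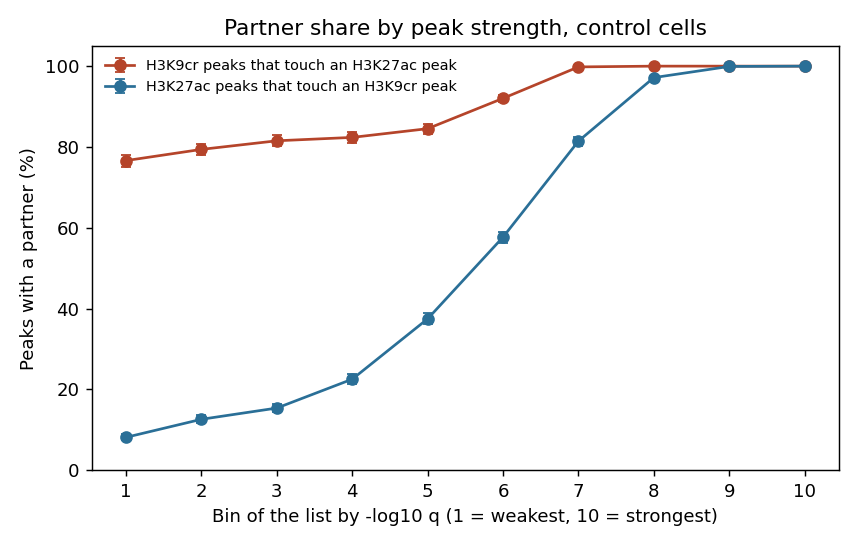
Share of peaks with a partner (%) in each of 10 strength bins of the H3K9cr and H3K27ac lists, from the weakest (1) to the strongest (10) by −log10 q; bars are exact 95% intervals. The H3K9cr share starts at 76.6% and the H3K27ac share at 8.15%, and both reach 100% in bin 10. The full lists were binned, with 31019 H3K9cr and 51780 H3K27ac peaks.

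Weak peaks of the 2 lists differed in this respect. Each list was split into 10 equal bins by −log10 q, with bin 1 the weakest. In bin 1 of the H3K9cr list 76.6% of peaks already lay on H3K27ac, and in bin 5 84.5% did. Bin 1 of the H3K27ac list had a partner in 8.15% of peaks, bin 5 in 37.5% and bin 8 in 97.2%. In the full lists, strength thus separated H3K27ac peaks by partner far more than H3K9cr peaks, as the plot of partner share by bin shows. These bins come from lists of unlike length, 51780 H3K27ac peaks against 31019 H3K9cr peaks. Whether the contrast holds with equal numbers of peaks was not tested.

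H3K9cr peaks alone often lay in H3K27me3, the Polycomb mark. H3K27me3 touched 61.5% of the H3K9cr peaks alone and 14.7% of those with H3K27ac. H3K4me3 touched 53.5% and 52.1%. Where a partner had to share at least 50% of both peaks, H3K27me3 touched 26.2% of H3K9cr peaks alone and 15.5% of those with a partner, and H3K4me3 touched 27.9% and 66.8%. Both methylation marks touched 1409 of the H3K9cr peaks alone (43.8%), H3K27me3 without H3K4me3 touched 17.7%, H3K4me3 without H3K27me3 touched 9.70%, and neither touched 928 peaks (28.8%). With H3K27ac, the corresponding shares were 11.8%, 2.81%, 40.2% and 45.1%. The difference in H3K27me3 had the same direction on 19 of 19 chromosomes.

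Read the other way, H3K9cr stood alone at 42.1% of its peaks with H3K27me3 and no H3K4me3 (39.4 to 44.8), at 30.0% of those with both marks, at 6.89% of those with neither and at 2.71% of those with H3K4me3 and no H3K27me3 (2.42 to 3.03). At gene ends the range was wider. There H3K9cr stood alone at 126 of 176 peaks with H3K27me3 and no H3K4me3 (71.6%), at 838 of 3151 peaks with both (26.6%) and at 99 of 8101 peaks with H3K4me3 and no H3K27me3 (1.22%). The share alone was also higher on stronger H3K27me3. Among H3K9cr peaks that touch both methylation marks, with the H3K27me3 list split by strength into 4 equal parts, it was 6.02% on the weakest part, then 10.4% and 14.8%, and 38.1% on the strongest (36.5 to 39.8). The median H3K9cr percentile fell along the same order, from 71.5 to 56.0, and its part in the result was not tested.

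**Figure D2:**
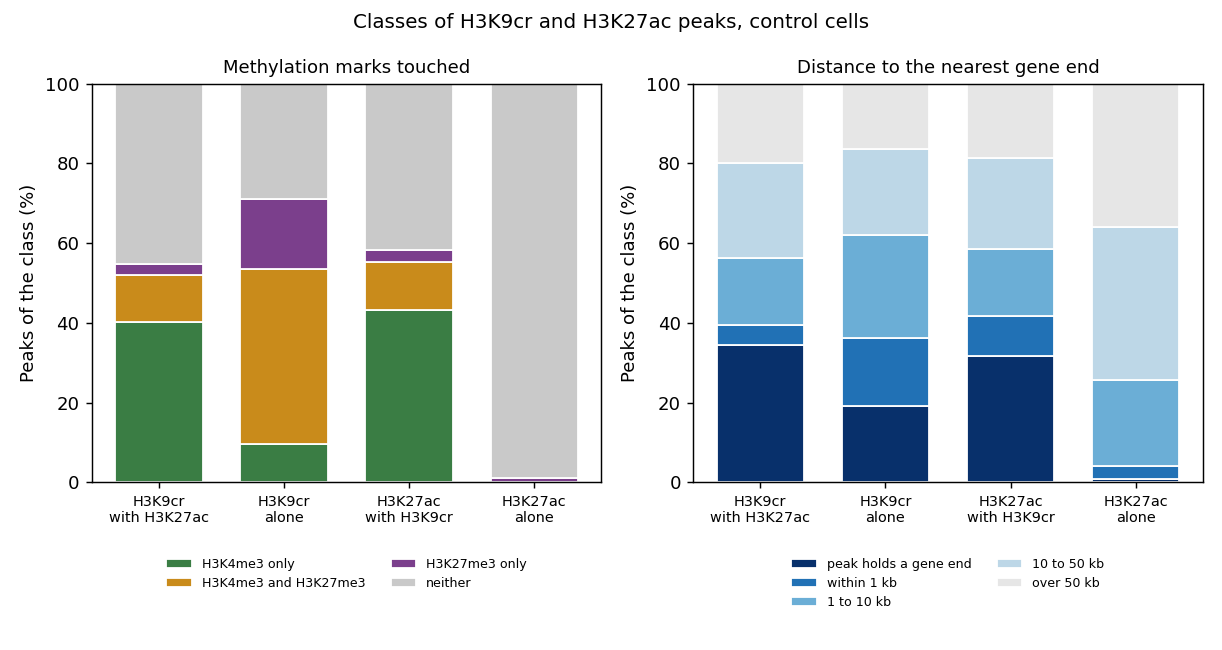
Share of the peaks of each class (%) by the methylation marks they touch (left) and by distance to the nearest end of a protein-coding gene (right). H3K9cr alone is the class with the largest H3K27me3 share of the 4, at 61.5%, and H3K27ac alone touches almost no methylation mark and lies mostly over 10 kb from gene ends.

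Peaks alone and with a partner were compared at like strength within each strength bin of the H3K9cr list that held at least 20 of each. In 6 of 6 such bins H3K27me3 was more frequent at peaks alone, at 41.9% to 83.4% against 3.41% to 27.9%. H3K4me3 was also more frequent at peaks alone in 6 of 6 bins, and so was a position within 1 kb of a gene end. In bin 5, for example, H3K4me3 touched 89.0% of the H3K9cr peaks alone and 24.6% of those with H3K27ac. The near-equal H3K4me3 shares of the whole classes thus pool bins in which they differ.

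**Figure D3:**
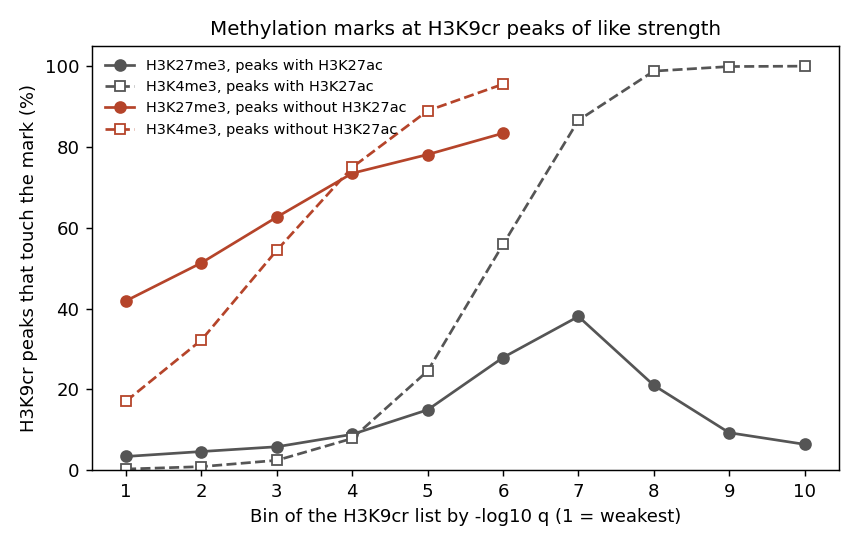
Share of H3K9cr peaks that touch H3K27me3 (circles) or H3K4me3 (squares), in %, by strength bin of the H3K9cr list (1 the weakest), for peaks with and without H3K27ac; points are drawn for classes of at least 20 peaks. In bins 1 to 6 the peaks without H3K27ac are above those with it for both methylation marks.

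H3K27ac alone had the opposite make-up. It touched H3K27me3 at 0.896% of its peaks and H3K4me3 at 20 of 24214 (0.083%), against 15.01% and 55.2% for H3K27ac with H3K9cr. In 8 of 8 bins of the H3K27ac list with enough peaks, both methylation marks and a gene end were less frequent at peaks alone. In bin 1, H3K4me3 touched 43.8% of the H3K27ac peaks with H3K9cr and 0.042% of those alone. Of H3K27ac peaks with H3K4me3 and no H3K27me3, 0.159% lacked H3K9cr, and of those with both methylation marks 1 of 3271 did. Of H3K27ac peaks with neither, 67.6% (67.1 to 68.1) lacked it.

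Position separated the classes too. H3K27ac alone lay within 1 kb of a gene end at 3.99% of peaks, against 41.8% with H3K9cr, and its median distance to the nearest gene end was 29756 bp against 4203.5 bp. Gene bodies held 60.1% of the H3K27ac peaks alone, and 36.1% lay over 50 kb from any gene end. Only protein-coding genes were used for these positions. Over 10 kb from gene ends, 17988 H3K27ac peaks stood alone (74.3% of the class), and 5 of them touched H3K4me3. H3K9cr alone was at least as near to genes by the median as H3K9cr with a partner, lying within 1 kb of a gene end at 36.2% against 39.4% of peaks, at median distances of 3896 bp and 5816.5 bp.

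Where both marks were present their summits were close. Of 29062 overlapping pairs, 54.2% had summits within 100 bp of each other, with a median of 77 bp and quartiles of 18 and 352 bp. The median was 58 bp in pairs with H3K4me3 and 96 bp in pairs without. Among 23799 pairs in which each peak had 1 partner, the H3K9cr peak had a median of 0.922 times the width of its H3K27ac partner. This ratio was 1.05 in the 13133 pairs with H3K4me3 and 0.601 in the 10666 without. In pairs without H3K4me3, the H3K9cr peak sat at a median percentile of 27.7 of its list and the H3K27ac peak at 62.3 of its own. With H3K4me3 the medians were 76.2 and 83.0. Within-list strength of the partners had a Spearman rho of 0.790 over the 23799 pairs (0.855 with H3K4me3, 0.635 without), a description over sites of 2 libraries that share cell culture, sequence content and mappability.

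At gene starts both marks peaked downstream, and H3K27ac more often upstream as well. Positions were taken relative to 13796 genes with a single start in the promoter table. H3K9cr had a summit within 1 kb of 7954 of them, at a median of 260 bp downstream with quartiles of 113 and 346 bp. H3K27ac had one at 7364, at a median of 164 bp with quartiles of -206 and 313 bp. Summits lay downstream at 82.1% of the H3K9cr starts (81.2 to 82.9) and at 69.2% of the H3K27ac starts (68.1 to 70.3). H3K4me3 summits lay downstream at 85.7%, nearer to H3K9cr than to H3K27ac in this share. Their median of 196 bp downstream was nearer to that of H3K27ac. At the 7186 starts with both acyl marks the H3K9cr summit was a median of 9 bp further downstream, and it was the further one at 59.2%.

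**Figure D4:**
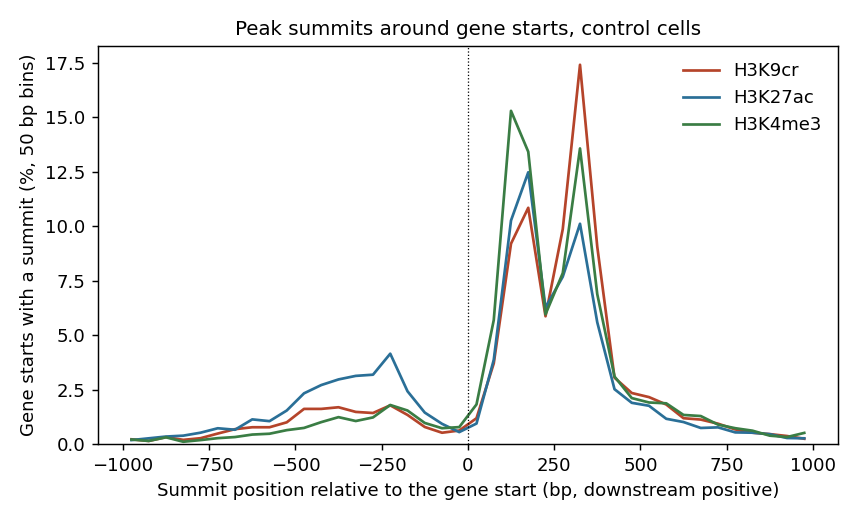
Share of gene starts with a summit (%, 50 bp bins) by position of the H3K9cr, H3K27ac and H3K4me3 summit relative to the start, downstream positive. H3K9cr and H3K4me3 summits lie mostly downstream, at 82.1% and 85.7%, and H3K27ac has a further group upstream, with a lower quartile of -206 bp.

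Genes were classed by whether a peak touched the 1 kb either side of an annotated gene end. Of 20661 protein-coding genes, 11825 had both marks (57.2%), 1053 had H3K9cr only (5.1%), 336 had H3K27ac only (1.63%) and 7447 had neither (36%). With or without the other mark, 12878 genes had H3K9cr (62.3%) and 12161 had H3K27ac (58.9%). The strongest peak itself had no partner at 989 of the H3K9cr-only genes and 264 of the H3K27ac-only genes, so that at the others the second mark lay beyond the window. Both methylation marks stood at the ends of 805 of the 1053 H3K9cr-only genes (76.4%, 73.8 to 79.0), against 22.5% of the genes with both marks. Marks at opposite ends of a gene count together here, so this is a state of the gene and not of its promoter. Seen from the 3550 genes with both methylation marks, 74.8% had both acyl marks, 22.7% had H3K9cr only, none had H3K27ac only (0 of 3550, exact upper bound 0.104%) and 2.54% had neither. Of the genes with H3K4me3 and no H3K27me3, 98.8% had both. H3K27ac-only genes had neither methylation mark at 292 of 336 (86.9%).

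CG content differed between promoters classed by the marks within 1 kb of their own start. These classes are per promoter and can differ from the class of the gene, as at Egr2 and Unk. Among 20084 promoters of 16456 genes found in the promoter table, the median number of CG dinucleotides in the 250 bases before the start was 17 with both marks, 12 with H3K9cr only, 3 with H3K27ac only, 2 with neither and 10 over all. A CG content of at least 0.6 of that expected from base composition was reached by 72.0% of promoters with both marks, 45.4% with H3K9cr only, 3.36% with H3K27ac only and 4.97% with neither (45.9% over all). Promoters with both methylation marks had a median of 17 CG dinucleotides with both acyl marks and 14 with H3K9cr only. The letters TATAAA, on either strand, were found in 5.51%, 7.20%, 12.2% and 22.4% of the promoters of these classes in the same order, and in 11.7% of all promoters.

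Nearly all neural stem and progenitor genes had both marks. Of 30 neural stem and progenitor genes, 29 had both (96.7%, against 57.2% of all genes) and none had 1 mark alone. Both methylation marks stood at the ends of 20 of these 30 genes. Sox2, a factor of neural stem cell identity, lay under an H3K9cr peak of 31666 bp and an H3K27ac peak of 34951 bp, with 183-fold and 46.5-fold enrichment. Vim, the filament protein of progenitors, had 191-fold and 32.3-fold enrichment. The Notch effector Hes5 had 96.6-fold and 26.5-fold enrichment. Pax6, a factor of cortical progenitors, was the weak one among these, with 10.5-fold H3K9cr and 3.65-fold H3K27ac. General cell functions were also above the 57.2% of all genes, with both marks at 30 of 31 cell cycle and DNA replication genes, 35 of 38 proteasome genes, 28 of 30 genes of the crotonylation and acetylation machinery, 24 of 26 Polycomb and trithorax genes and 19 of 20 immediate early genes. Of the Fgf, Egf and Notch pathway genes, 28 of 32 had both, and the ligand genes Jag2 and Dll4 had H3K9cr only.

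Several genes of neuronal fate had H3K9cr without H3K27ac. Of 24 forebrain patterning factors, 14 had both marks and 9 had H3K9cr only (37.5%, against 5.1% of all genes). Both methylation marks stood at 20 of the 24, and 7 of these 20 had H3K9cr only. Of all genes with both methylation marks, 22.7% had H3K9cr only. The 9 with H3K9cr only were Tbr1, Neurog1, Neurog2, Lhx8, Dlx5, Dlx6, Emx1, Eomes and Fezf2. All of them carried H3K27me3 and 7 also H3K4me3. H3K27me3 was not particular to them, since 23 of the 24 factors carried it. Of 27 neuronal differentiation and synapse genes found, 13 had both and 8 had H3K9cr only (29.6%), among them Gad1, Neurod1, Slc17a7, Syt1 and Gria1. All 8 were among the 17 of the 27 genes that had both methylation marks at their ends. At Slc17a7 the strongest H3K4me3 and H3K27me3 peaks lay at opposite ends of the gene. In both lists the strongest peak itself had no partner at each of these genes.

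The signals at these genes were moderate in H3K9cr and high in H3K27me3. Gad1 had an H3K9cr peak of 2995 bp (chr2:70560973-70563967) with 14.7-fold enrichment under an H3K27me3 peak of 14628 bp with 124-fold enrichment, and its nearest H3K27ac peak lay 51692 bp from it. Slc17a7, a vesicular glutamate transporter, had 10.8-fold H3K9cr. Tbr1 and Eomes, factors of cortical projection neurons and their intermediate progenitors, had 10.5-fold and 8.65-fold H3K9cr, with 226-fold and 74.4-fold H3K27me3. The Tbr1 H3K9cr peak (chr2:61814998-61815992) lay outside the gene, past its end at 61814114, and Tbr1 had no H3K4me3 peak at its ends. It is thus a peak near a gene end and was not placed at the Tbr1 promoter. Emx1 had 8.27-fold H3K9cr (chr6:85187383-85188449). These 5 peaks lay at or below percentile 51.2 of the H3K9cr list.

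**Figure D5:**
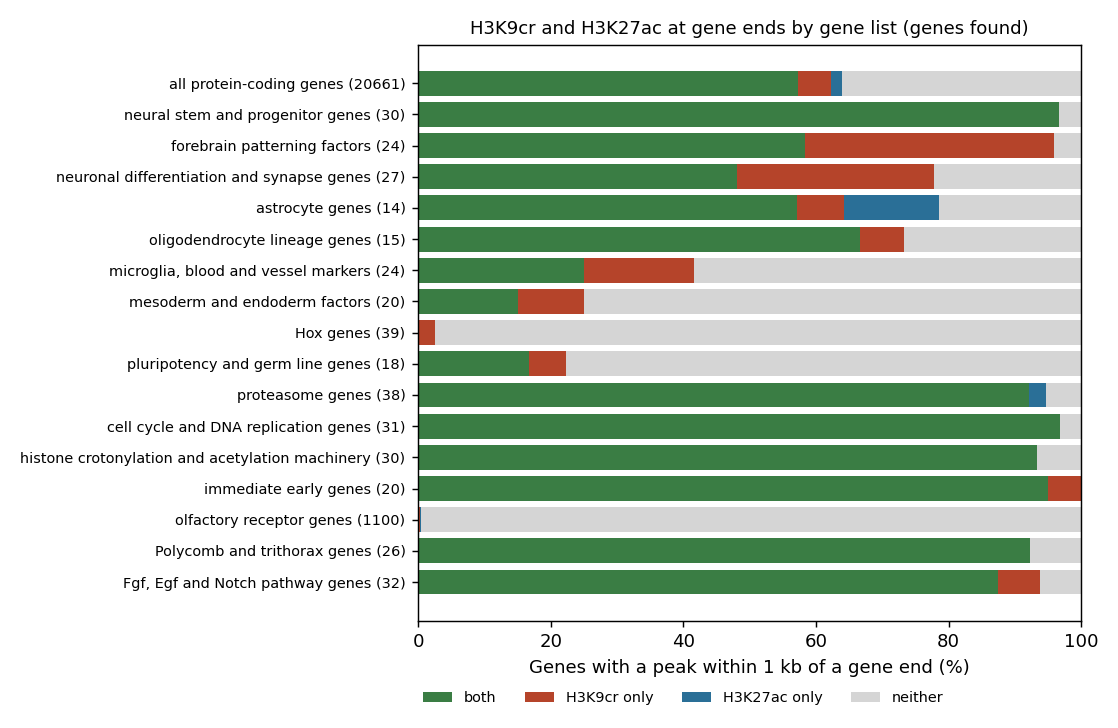
Share of the genes of each list (%) with both marks, H3K9cr only, H3K27ac only or neither within 1 kb of a gene end; numbers in brackets are genes found. H3K9cr only takes 37.5% of forebrain patterning factors and 29.6% of neuronal genes, against 5.1% of all protein-coding genes. It takes 22.7% of all genes with both methylation marks.

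Genes of the germ line, mesoderm, endoderm, vessels and blood mostly had neither mark, as did Hox and olfactory receptor genes, against 36% of all genes. Of 39 Hox genes 38 had neither. Of 1100 olfactory receptor genes 1096 had neither. Neither mark was found at 15 of 20 mesoderm and endoderm factors, where Gata6 and Isl1 had H3K9cr only, at 14 of 18 pluripotency and germ line genes and at 14 of 24 microglia, blood and vessel markers. In the last list, 4 genes had H3K9cr only (16.7%, against 5.1% of all genes), namely Flt1, Pdgfrb, Cldn5 and Sox18. This share was 10% among the mesoderm and endoderm factors. Flt1, a receptor of vascular endothelial growth factor, had 12.2-fold H3K9cr under 163-fold H3K27me3. The H3K9cr peaks of the others were weaker, at 5.38-fold for Pdgfrb, 3.25-fold for Cldn5 and 2.74-fold for Sox18. Of the 15 oligodendrocyte lineage genes, 10 had both marks (66.7%, against 57.2% of all genes) and 4 had neither (26.7%, against 36%). In this list Pdgfra, the receptor that marks oligodendrocyte precursors, had H3K9cr only. Its peak of 4932 bp touched H3K27ac outside the gene end window.

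The astrocyte genes were near the share of all genes in both marks, at 8 of 14 (57.1% against 57.2%). Of the others 3 had neither, Slc7a10, an amino acid transporter, had H3K9cr only, and Gfap and S100b had H3K27ac only, which 1.63% of all genes had. The S100b peak was weak, with 3.42-fold enrichment, and the nearest H3K9cr peak lay 14923 bp away. The Gfap peak (chr11:102897575-102899357, 5.84-fold) touched an H3K9cr peak that began beyond the 1 kb window. Neither gene carried H3K4me3.

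The strongest genes of each class were named by rule. With both marks these were Hjurp, Hsd17b12, Selenok, Cdk12, Tor1aip1 and Tor1aip2 (1 shared peak), Kat7, Zfp869, Ephx1 and Tsc22d1. Selenok, a selenoprotein of the endoplasmic reticulum, had 340-fold H3K9cr and 60.3-fold H3K27ac. Cdk12, a kinase of RNA polymerase II, had 309-fold and 57.9-fold. The rule for H3K9cr only returned Egr2, Fbxo7, Vpreb1, Aph1b, Ehbp1l1, Plxdc1, Pxdn, Fat1, Rbm48 and Ccdc85c, and for H3K27ac only it returned 10 genes that included Sema3b, Unk, Trim66, C87436, Hlcs, Msmb, Igsf23, Dcaf12 and N4bp2. The strongest peak had a partner at all 20 genes so returned, which entered their class because the second mark ended short of the window.

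Genes whose strongest peak had no partner were therefore taken as well, after the values were seen. For H3K9cr the first was Srp54b, whose near-identical copies make the place of its reads uncertain. Next came Hs6st3, a heparan sulfate sulfotransferase, with an H3K9cr peak of 1464 bp (chr14:119137354-119138817) at 28.7-fold. Its H3K4me3 was 70.3-fold and its H3K27me3 113-fold. Plcg2, a phospholipase of immune receptor signalling, had 25.8-fold H3K9cr, Met, the receptor of hepatocyte growth factor, had 24.5-fold, and the chemokine gene Cxcl12 had 21.1-fold. H3K27ac was 81826 bp away at Met and 84652 bp away at Cxcl12. For H3K27ac the first were Serpina3j, a serine protease inhibitor of a family with many copies, at 13.6-fold, the sulfotransferase gene Sult5a1 at 11.2-fold and the glutathione transferase gene Gstm6 at 10.5-fold. None of these 3 carried H3K4me3 or H3K27me3.

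Over 10 kb from gene ends, H3K4me3 touched 412 of 1221 H3K9cr peaks alone (33.7%) and 20.9% of those with a partner, and H3K27me3 touched 43.2% and 9.35%. Only ends of protein-coding genes were used, so peaks called distal here can lie at non-coding genes. The 5 strongest H3K9cr peaks alone at this distance had Nupl1, Dlx2, Atp2b4, Dlc1 and Ank1 as the nearest protein-coding genes. Of these peaks 5 of 5 touched H3K4me3, 3 of them with H3K27me3. The one nearest Dlx2, a factor of ventral forebrain neurons, spanned 844 bp (chr2:71580729-71581572) with 31.2-fold enrichment, 33975 bp from the gene. The 5 strongest H3K27ac peaks alone were nearest Lifr, Fgl1, Agbl1, Psmg3 and Snx29 at 14.4-fold to 17.3-fold, and 5 of 5 touched neither methylation mark. With both marks, a region of 29989 bp of H3K9cr (chr13:83712738-83742726) and 30690 bp of H3K27ac lay 45659 bp from Mef2c, a transcription factor of neurons. It and the other 4 strongest distal pairs touched H3K4me3 as well.

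The same mark was looked for again in the crotonate libraries. H3K9cr peaks were found again at 84.0% where they stood alone and at 85.0% with a partner. H3K27ac peaks were found again at 54.2% alone and at 92.8% with a partner. Of the H3K9cr peaks alone, 21.9% touched an H3K27ac peak of the crotonate culture, and of the H3K27ac peaks alone, 6.94% touched a crotonate H3K9cr peak. At like strength, peaks alone in bin 1 of the H3K9cr list were found again at 57.1% and those with a partner at 35.7%. In bin 1 of the H3K27ac list the shares were 32.0% alone and 43.4% with a partner. In the H3K9cr list the gap was wider in bin 2, at 79.2% alone and 47.1% with a partner. It then narrowed, to 91.6% and 66.0% in bin 3 and to 99.2% and 96.3% in bin 5. In the H3K27ac list the shares were 74.5% alone and 80.4% with a partner in bin 5, and 100% and 99.9% in bin 8.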

How the data were processed

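Peak lists were deposited for 8 of the 10 samples. The 4 control lists and the crotonate lists of H3K9cr and H3K27ac were used. Reads were aligned with Bowtie2 2.4.1 to GRCm38 and peaks called with MACS2 2.2.7.1, per the submitters' processing notes. Peak calling settings, duplicate handling, read totals and the input, if any, were not given in the sources used here. Antibodies were PTM-516 (H3K9cr) and ab4729 (H3K27ac), per the labels. In the deposited lists, per the file headers, each peak has a pileup signal, a fold enrichment ratio over local background and −log10 p and q values. Positions count from 1. These are the authors' own values for each peak and served only to describe and rank peaks within a list.

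Partners, distances and shares were computed in Python 3.11.15 with pandas 2.3.3 and SciPy 1.17.1 on chromosomes 1 to 19 (886 H3K9cr and 1142 H3K27ac peaks on X and Y were left out). The overlap code was tested on simulated peaks. Gene ends came from RefSeq on GRCm38.p6 in a table without strand, so a gene end is either end of a protein-coding gene. Ends of non-coding genes were not used. Starts with strand came from the promoter table. Named genes were the 10 strongest per class by −log10 q, or by the mean percentile for both marks. The members, the 16 gene lists and the markers were chosen with earlier results of these data known. Some genes that the rule or the lists hold are not reported here. Alternatives changed overlap, the peaks kept, windows and ranking.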

Additional observations from a re-analysis of the deposited data

How the results depend on the processing

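Of 77 alternative values, 31 moved and 46 did not, where a share moved if it left the 95% interval of the value reported and other values moved if they changed by over 1.5 times. No paired analysis was possible because each mark had 1 library. The share of H3K9cr peaks with a partner (89.6%) became 62.5% with an overlap of at least 50% of both peaks, 90.5% with a partner within 1 kb, 88.4% with the summit inside the other peak, 92.8% in the stronger 50% of both lists, 81.2% with equal numbers of peaks, 87.0% at 4-fold enrichment or more and 89.99% with peaks merged within 3 kb. In the same order, the share of H3K27ac peaks with a partner (53.2%) became 37.4%, 57.2%, 51.0%, 57.6%, 78.9%, 66.8% and 61.3%. With equal numbers of peaks the 2 shares were thus near each other, at 81.2% and 78.9%. H3K9cr-only genes rose in number from 1053 to 1600 with equal numbers of peaks. H3K27ac-only genes fell in number from 336 to 162 with equal numbers and to 145 with gene starts only, a setting that also holds only the 16456 genes of the promoter table. Of H3K9cr peaks alone, 36.2% lay at gene ends, and this became 20.7% (50% overlap), 37.9% (1 kb), 63.2% (stronger 50%), 30.9% (equal numbers), 38.3% (4-fold) and 38.8% (merged). The 3.99% of H3K27ac peaks alone at gene ends became 8.63% (50% overlap), 3.66% (1 kb) and 5.16% (stronger 50%). The H3K27ac width ratio of peaks with over without a partner, 3.60, was 1.32 in the stronger 50% and 1.89 with equal numbers. H3K27me3 was more frequent at H3K9cr peaks alone in all 8 partner settings run, from 26.2% against 15.5% (50% overlap) to 80.2% against 16.9% (stronger 50%). H3K4me3 changed direction, with 27.9% of H3K9cr peaks alone against 66.8% with a partner at 50% overlap. The cause of these moves was not tested. Counting only genes whose strongest peak had no partner, a choice made after seeing the data, gave 989 and 264 genes. Unlike lists limit the comparison, since the H3K27ac list was longer and its peaks had a lower median pileup (23 against 74). Without read totals, sequencing depth could not be compared.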
